A study of Mus musculus with 2 samples.

Results

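The 10 clock genes compared between regenerating WT and KO livers were Arntl, Npas2, Cry1, Nfil3, Per1, Per2, Per3, Nr1d1, Nr1d2 and Dbp. They were chosen by name, as every locus that carries one of these symbols and was not marked as too deep to estimate, and all 10 were found among 33224 gene symbols. Hepatic RNA of male C57BL/6 mice was sequenced as 1 library from wild type (WT) and 1 from PPARbeta-null (KO) mice, aged 4 months by the sample labels, both 48 hr after partial hepatectomy (PH), the surgical removal of most of the liver. The KO mice lack PPARβ, a lipid-activated nuclear receptor encoded by Ppard, and how the null allele was made was not given in the sources used here. All mice were kept on a cycle of 14 hr light and 10 hr dark with free access to food, and the hour of the day at which the livers were taken was not given in the sources used here. How many mice went into each library was not given either. With 1 library per genotype no difference has a replicate check, and no test or p-value is given.

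The clock of liver cells is a loop of transcription that runs once a day. BMAL1 (encoded by Arntl), paired with CLOCK or NPAS2, activates genes that carry an E-box, among them the Per and Cry repressors, the REV-ERB receptors (Nr1d1 and Nr1d2) and the output factor Dbp. PER and CRY proteins then block BMAL1, while REV-ERBs repress Arntl, Npas2, Cry1 and Nfil3 through elements that they share with the activating ROR receptors. DBP and NFIL3 bind the same D-box element, where DBP activates and NFIL3 represses. In the liver the mRNAs of Arntl, Npas2 and Nfil3 and those of Dbp and the Per genes peak at different times of the day.

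The promoters show which of these elements stand near the annotated starts. RefSeq promoter windows (GRCm38.p6) of 250 bases before to 50 bases after the start were at hand for 9 of the 10 members, as 11 windows, with Per2 the member without one. The E-box was searched as CACGTG, its variant as CACGTT, the D-box as TTATGTAA, its variant as TTACGTAA, the ROR element core as TAGGTCA, and the same core without its first T as AGGTCA, all on both strands. Every match of TAGGTCA is also a match of AGGTCA. Of all 32851 windows in the RefSeq table, 7.15% held CACGTG, 4.68% CACGTT, 0.938% TTATGTAA, 0.119% TTACGTAA, 2.61% TAGGTCA and 16.3% AGGTCA. Printed here are the windows of 6 members that hold an element of the loop, since they show the different elements side by side. Capitals mark the matched letters, and all runs read 5′ to 3′ on the strand of the gene.

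Arntl (second of its windows, chr7:113207261-113207560, plus strand): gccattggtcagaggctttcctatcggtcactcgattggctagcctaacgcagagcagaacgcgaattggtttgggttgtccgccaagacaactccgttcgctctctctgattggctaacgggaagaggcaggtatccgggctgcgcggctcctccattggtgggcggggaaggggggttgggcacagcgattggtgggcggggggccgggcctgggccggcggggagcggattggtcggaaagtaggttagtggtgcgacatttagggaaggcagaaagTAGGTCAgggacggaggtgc
Nfil3 (chr13:52980990-52981289, minus strand): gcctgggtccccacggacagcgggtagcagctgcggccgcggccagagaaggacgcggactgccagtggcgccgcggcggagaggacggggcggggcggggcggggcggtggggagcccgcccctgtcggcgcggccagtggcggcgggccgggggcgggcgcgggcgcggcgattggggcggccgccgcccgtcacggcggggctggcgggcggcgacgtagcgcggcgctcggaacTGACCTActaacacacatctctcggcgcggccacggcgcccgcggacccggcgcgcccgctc
Cry1 (chr10:85185005-85185304, minus strand): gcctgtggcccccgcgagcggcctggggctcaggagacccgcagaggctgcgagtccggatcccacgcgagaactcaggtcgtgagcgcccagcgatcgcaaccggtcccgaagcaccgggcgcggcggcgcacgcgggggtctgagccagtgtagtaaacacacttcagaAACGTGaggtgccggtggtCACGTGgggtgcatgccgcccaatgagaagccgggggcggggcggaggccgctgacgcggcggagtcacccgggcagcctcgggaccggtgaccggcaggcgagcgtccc
Per1 (first of its windows, chr11:69098699-69098998, plus strand): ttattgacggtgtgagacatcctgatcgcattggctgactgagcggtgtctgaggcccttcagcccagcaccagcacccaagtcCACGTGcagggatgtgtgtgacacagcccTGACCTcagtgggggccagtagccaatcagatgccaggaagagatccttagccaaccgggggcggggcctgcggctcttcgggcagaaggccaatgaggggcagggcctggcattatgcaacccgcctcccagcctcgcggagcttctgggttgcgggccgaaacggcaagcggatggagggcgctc
Per3 (chr4:151044616-151044915, minus strand): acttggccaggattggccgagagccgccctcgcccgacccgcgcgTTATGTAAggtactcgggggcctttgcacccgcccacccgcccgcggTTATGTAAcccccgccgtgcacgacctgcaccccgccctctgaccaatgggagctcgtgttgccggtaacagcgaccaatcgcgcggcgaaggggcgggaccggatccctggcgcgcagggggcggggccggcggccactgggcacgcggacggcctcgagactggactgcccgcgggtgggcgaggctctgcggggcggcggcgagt
Nr1d1 (chr11:98775328-98775627, minus strand): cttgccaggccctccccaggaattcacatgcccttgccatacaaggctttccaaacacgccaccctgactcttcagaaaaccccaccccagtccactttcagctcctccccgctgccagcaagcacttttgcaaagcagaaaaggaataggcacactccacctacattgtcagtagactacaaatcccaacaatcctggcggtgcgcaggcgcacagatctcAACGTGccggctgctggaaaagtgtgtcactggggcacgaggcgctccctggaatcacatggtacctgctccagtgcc

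Arntl and Nfil3 were the members with a match of TAGGTCA, in Arntl at positions 31 to 37 after the start and in Nfil3, on the opposite strand, at -12 to -6. Cry1 held CACGTG at -60 to -55 and the variant at -79 to -74. Per1 held CACGTG at -166 to -161 and AGGTCA on the opposite strand at -137 to -132. Per3 held TTATGTAA at both -205 to -198 and -158 to -151. Nr1d1 held the E-box variant at -28 to -23, and Nr1d2 held AGGTCA at -77 to -72. The windows of Npas2 and Dbp, the first of Arntl and the second of Per1 held none of these letters. A match describes the sequence and was not tested as a site.

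**Figure D1:**
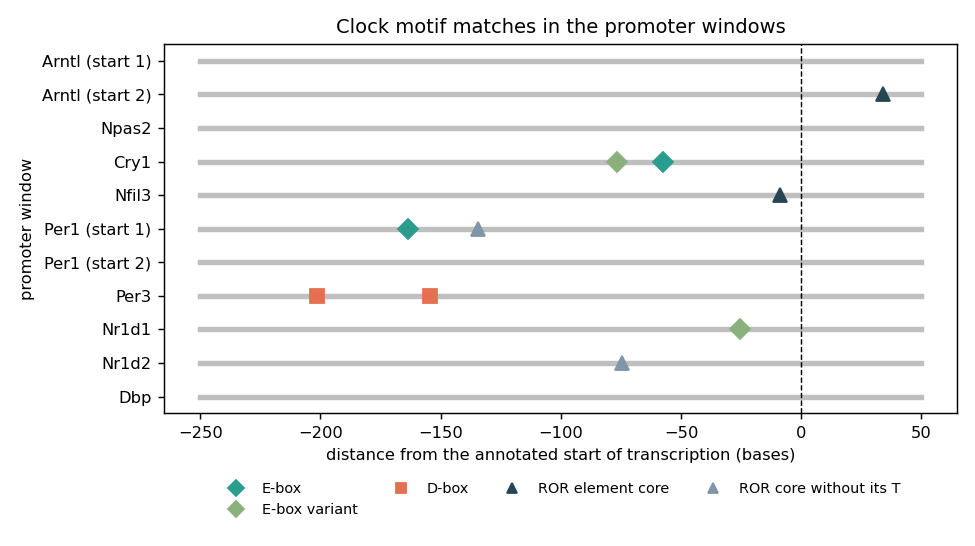
Positions of motif matches (marks) in the 11 promoter windows of 9 clock genes (grey lines), as the distance in bases from the annotated start of transcription (dashed line). ROR element cores lie in the Arntl and Nfil3 windows, E-boxes in those of Cry1 and Per1, and both D-boxes in that of Per3.

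Levels are given as FPKM, fragments scaled to the exon length of the gene and to the number of mapped fragments, which the authors estimated for each locus and which can be compared between genes because they are per length. Low values of single-exon genes fell on whole multiples of 1 fragment, and from their spacing 1 fragment on a transcript of 1 kb was worth 0.0183 FPKM in WT and 0.0180 in KO, so that 1 FPKM on such a transcript stood for about 54.7 fragments in WT and 55.6 in KO. The 95% intervals beside the levels and ratios are exact Poisson and binomial intervals on fragments estimated in this way. They cover counting error only and say nothing of the difference between mice. Expressed genes are the 11049 with a mean FPKM of at least 1 over both libraries. Of these, 75.7% were lower in KO, and their median log2 KO/WT was -0.24, taken with a pseudocount of 0.1 FPKM. The names in the deposited table give each library its own sequencing lane, so lane and genotype cannot be told apart.

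The targeted gene does not separate the libraries. Ppard had 2.67 FPKM in WT and 2.42 in KO, and the level was 1.10 times as high in WT (95% counting interval 0.966 to 1.26). A null allele can still make RNA from the exons that remain, so a value over the whole locus does not check the genotype labels.

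The clock genes fell on opposite sides. Per1, Per2, Per3, Nr1d2 and Dbp were lower in KO, and Arntl, Npas2, Cry1, Nfil3 and Nr1d1 were higher. Dbp was 6.99 times and Per3 8.18 times as high in WT as in KO, while Arntl was 2.34 times and Npas2 3.41 times as high in KO. The filter on mean FPKM was passed by 9 members, all but Npas2, whose mean was 0.545. Over a 2-fold difference, 5 of these 9 were lower in KO, where 8.91% of all expressed genes were. By the same measure 1 of the 9, Arntl, was higher in KO, beside 1.75% of all expressed genes. With ratios centred on the median of expressed genes the counts were 3 and 1 of 9, and the shares of all expressed genes 6.33% and 2.73%.

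**Figure D2:**
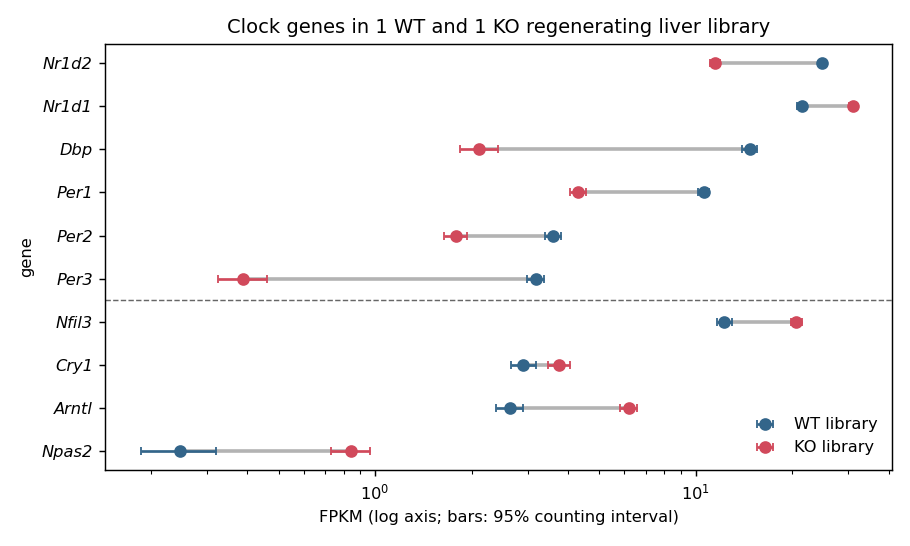
FPKM of the 10 clock genes (log axis) in the WT library (blue) and the KO library (red), with bars for the 95% counting interval. Above the dashed line stand the Per genes, the REV-ERB genes and Dbp, of which Nr1d1 alone was higher in KO, and below it stand Nfil3, Cry1, Arntl and Npas2, which were all higher in KO.

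Arntl, which encodes BMAL1, the activator that the loop needs, had 2.64 FPKM in WT and 6.18 in KO. The KO/WT ratio was 2.34 (95% counting interval 2.09 to 2.63) on about 422 and 1005 fragments. Of the expressed genes, 1.09% had a higher log2 KO/WT than Arntl. In the files' build, NCBIM37 (mm9), Arntl lies on chromosome 7 (plus strand, 120350979 to 120457636) as ENSMUSG00000055116.6, with 21 exons in its longest transcript.

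Npas2 encodes a partner of BMAL1 that can stand in for CLOCK. It was the lowest member in WT, at 0.247 FPKM, and had 0.842 FPKM in KO. The ratio was 3.41 (95% counting interval 2.53 to 4.67), the least precise of the ratios of members higher in KO, since the WT value rests on about 57.2 fragments. Npas2 lies on chromosome 1 (plus strand, 39250576 to 39420079). The mRNA of CLOCK itself differed little, with 10.4 FPKM in WT and 9.69 in KO (WT/KO ratio 1.07, 95% counting interval 1.03 to 1.12). Clock mRNA was 3.94 times as high as Arntl mRNA in WT and 1.57 times in KO. Against Npas2 it was 42.1 times as high in WT and 11.5 times in KO. A ratio of this kind is taken within a library, so no scaling of the libraries moves it.

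The Per genes encode partners of the CRY proteins in the repression of BMAL1, and all of them were lower in KO. Per1 had 10.6 FPKM in WT and 4.31 in KO, and the level was 2.46 times as high in WT (95% counting interval 2.30 to 2.64). Per2 had 3.60 FPKM in WT and 1.79 in KO, with WT 2.01 times as high (1.82 to 2.23). The intervals of Per1 and Per2 do not overlap, but both genes differed by a similar factor, and Per1 was 2.95 times as high as Per2 in WT and 2.41 times in KO.

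Per3 stood apart from Per1 and Per2. It had 3.18 FPKM in WT and 0.388 in KO, resting on some 1042 and 129 fragments, and its WT/KO ratio of 8.18 (95% counting interval 6.83 to 9.94) was the largest among the 10 members. The counting interval of Dbp (6.04 to 8.11) overlaps that of Per3. With a pseudocount of 1 FPKM the log2 KO/WT was -1.59 for Per3 and -2.34 for Dbp, so the order of these genes is not settled. Of the expressed genes, 1.75% had a lower log2 KO/WT than Per3, against 5.53% for Per1 and 8.88% for Per2. Per2 was 1.13 times as high as Per3 in WT and 4.60 times in KO. Per3 thus made up 18.3% of the summed Per FPKM in WT and 5.99% in KO, and the sum was 17.4 FPKM in WT and 6.48 in KO. Of the 9 members with a promoter window, Per3 alone held the D-box, at 2 places, and Per2 had no window to search. The part of these matches in the Per3 level was not tested. Per3 lies on chromosome 4 (minus strand, 150377761 to 150418774), Per2 on chromosome 1 (minus strand, 93312561 to 93355907), and Per1 on chromosome 11 (plus strand, 68908719 to 68923462). The deposited locus of Per1 also spans its neighbour Vamp2, which shares no exon base with it and had 8.61 FPKM in WT and 1.05 times that level in KO. The authors' table marks the Per1 locus as one whose comparison failed, although both levels are given.

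Cry1, the cryptochrome that REV-ERBs repress, was on the other side from the Per genes. It had 2.90 FPKM in WT and 3.75 in KO, and the level was 1.29 times as high in KO (95% counting interval 1.14 to 1.46), the smallest factor among the 10 members. Its partner repressor Cry2 had 6.94 FPKM in WT and 3.81 in KO, and the level was 1.82 times as high in WT (95% counting interval 1.67 to 1.99). Cry1 was 0.419 times as high as Cry2 in WT and 0.984 times in KO, so the cryptochromes stood close to equal in the KO library. Their sum was 9.84 FPKM in WT and 7.55 in KO. Cry1 lies on chromosome 10 (minus strand, 84594447 to 84647799).

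The REV-ERB receptors, heme-binding repressors of the loop, differed in opposite directions. Nr1d1 (REV-ERBα) had 21.4 FPKM in WT and 30.9 in KO, and the level was 1.44 times as high in KO (95% counting interval 1.38 to 1.51). Nr1d2 (REV-ERBβ) had 24.9 FPKM in WT and 11.5 in KO, and the level was 2.17 times as high in WT (2.07 to 2.26). Nr1d1 was 0.862 times as high as Nr1d2 in WT and 2.70 times in KO. Their sum was 46.3 FPKM in WT and 42.4 in KO, and the share of Nr1d1 in it was 46.3% in WT and 72.9% in KO. Of the expressed genes, 4.62% had a higher log2 KO/WT than Nr1d1 and 7.10% a lower one than Nr1d2.

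Nr1d1 was higher in KO while the Per genes, Nr1d2 and Dbp were lower. It lies on chromosome 11 (minus strand, 98629246 to 98636647) and overlaps the end of Thra, the thyroid hormone receptor α gene, on the opposite strand. They share 263 exon bases, 8.42% of the exon bases of Nr1d1, and the library kit does not mark strand, so fragments from these bases cannot be told apart. Thra had 4.81 FPKM in WT and 4.89 in KO, and Nr1d1 was 4.45 times as high as Thra in WT and 6.33 times in KO. Nr1d2 lies on chromosome 14 (minus strand, 19036568 to 19071641), where no other annotated gene overlaps it.

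Dbp, which encodes a D-box activator of liver output genes, had 14.8 FPKM in WT and 2.11 in KO, resting on some 1443 and 210 fragments. The WT/KO ratio was 6.99 (95% counting interval 6.04 to 8.11), and 1.74% of the expressed genes had a lower log2 KO/WT. Its locus on chromosome 7 (plus strand, 52960458 to 52965525) overlaps Sphk2 on the opposite strand. They share 491 exon bases, 16.7% of the exon bases of Dbp. Sphk2, a sphingosine kinase gene, had 9.65 FPKM in WT and 11.3 in KO. The deposited Dbp locus also spans the ribosomal protein gene Rpl18, which shares no exon base with it and had 193 FPKM in WT and 147 in KO.

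Nfil3 encodes the repressor that competes with DBP for the D-box, and it was higher in KO. It had 12.3 FPKM in WT and 20.6 in KO, and the level was 1.68 times as high in KO (95% counting interval 1.57 to 1.80), and 2.81% of the expressed genes had a higher log2 KO/WT. Nfil3 was 0.832 times as high as Dbp in WT and 9.78 times in KO, so the order of this pair was turned round. It lies on chromosome 13 (minus strand, 53062578 to 53076442) and has 2 exons.

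The other D-box activators of the PAR bZIP family, Tef and Hlf, did not follow Dbp alike. Tef had 28.4 FPKM in WT and 10.9 in KO, and the level was 2.60 times as high in WT (95% counting interval 2.49 to 2.72). Hlf had 9.19 FPKM in WT and 9.77 in KO, and the level was 1.06 times as high in KO (1.01 to 1.12). The sum of Dbp, Tef and Hlf was 52.4 FPKM in WT and 22.8 in KO, above the level of Nfil3 in both libraries (12.3 and 20.6). In that sum Dbp took 28.2% in WT and 9.25% in KO, and Hlf 17.5% and 42.8%.

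**Figure D3:**
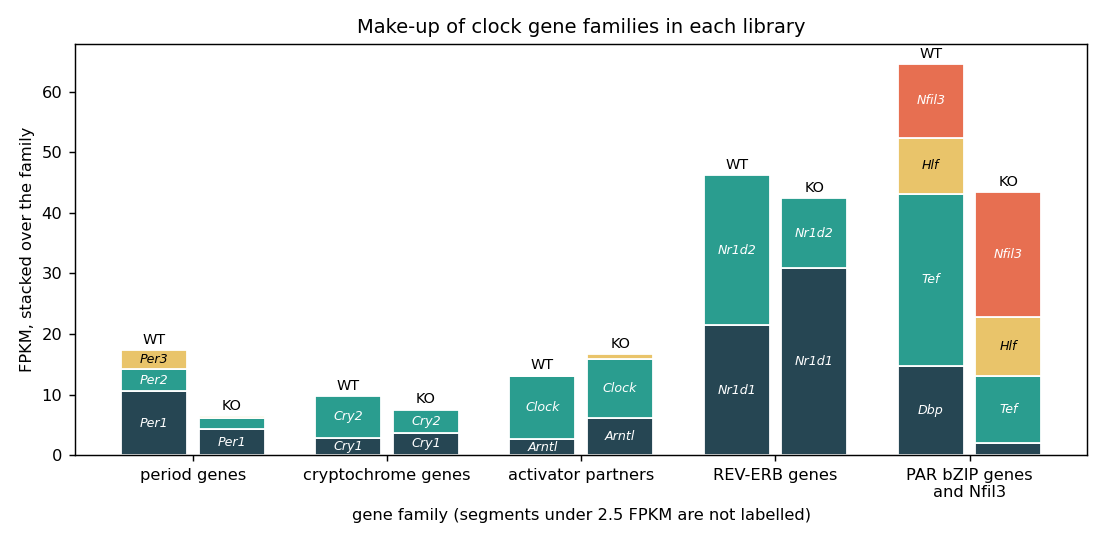
FPKM of clock gene families, stacked by gene, in the WT and KO libraries. The Per sum was 17.4 FPKM in WT and 6.48 in KO, the REV-ERB sums were close to each other with Nr1d1 the larger segment in KO, and Nfil3 overtook Dbp and Tef in KO.

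In WT the members ran, from high to low, as Nr1d2, Nr1d1, Dbp, Nfil3, Per1, Per2, Per3, Cry1, Arntl and Npas2, over a 101-fold range. The counting intervals of Per3 and Cry1 overlap in this order, as do those of Cry1 and Arntl. In KO the order was Nr1d1, Nfil3, Nr1d2, Arntl, Per1, Cry1, Dbp, Per2, Npas2 and Per3, over a 79.6-fold range, and only the intervals of the neighbours Dbp and Per2 overlap. Arntl thus passed from place 9 to place 4, Dbp from place 3 to place 7, and Per3 from place 7 to the last. Arntl was 0.179 times as high as Dbp in WT and 2.93 times in KO, and 0.831 times as high as Per3 in WT and 15.9 times in KO.

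The members were also read as a pair of arms, which overlap in their elements, since Cry1 is driven through E-boxes too. Arntl, Npas2, Cry1 and Nfil3, grouped here as genes that REV-ERBs repress, had a median log2 KO/WT of 0.97. Without Npas2, which was under the filter on mean FPKM, the median of the other 3 was 0.74. Per1, Per2, Per3, Nr1d1, Nr1d2 and Dbp, the E-box and D-box arm, had a median of -1.19, beside -0.24 over all expressed genes. The grouping does not mean that REV-ERBs spare the genes of this arm. The difference between the arm medians was 2.16 on the log2 scale. Scaling the libraries in another way adds nearly the same amount to both arms, so it cannot move this difference and is no check on it. With a pseudocount of 1 FPKM the difference was 1.72. The arms were set with earlier results of these data known. From the 5th to the 95th percentile, the log2 KO/WT of expressed genes ran from -1.37 to 0.49.

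Of 18 further clock genes and modifiers, 15 were expressed, 12 of them lower and 3 higher in KO, and the median of their log2 ratios was -0.31. These counts stand beside 75.7% of all expressed genes lower in KO and a median of -0.24. Among these 15, 3 were over 2-fold lower and 1 over 2-fold higher, beside 8.91% and 1.75% of all expressed genes. Clock, Rora and Fbxw11, counted as lower, turned higher when the libraries were scaled to equal upper quartiles or centred. Of 4 further repressors, Cry2 included, 3 were expressed, and these were lower in KO. Ciart (listed as Gm129), which encodes a repressor of CLOCK and BMAL1, had 10.4 FPKM in WT and 0.668 in KO, and the level was 15.6 times as high in WT (95% counting interval 12.3 to 20.1), a larger factor than for any of the 10 members. Bhlhe40 (DEC1), which competes for E-boxes, had 36.9 FPKM in WT and 14.8 in KO, with WT 2.49 times as high (2.38 to 2.61). Bhlhe41 (DEC2) was under the filter, with 0.401 FPKM in WT and 0.135 in KO.

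Rora encodes a ROR receptor, which activates through the element where REV-ERBs repress. It had 11.5 FPKM in both libraries, and the 95% counting interval of its WT/KO ratio ran from 0.970 to 1.04. Rorb, of the same family, was listed at 0 in both libraries. Arntl2, the paralog of Arntl, had 0.262 FPKM in WT and 0.143 in KO, on the other side from Arntl.

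Kinases and ubiquitin ligases set the life of PER and CRY proteins, and of the genes for them described here only Fbxl21 lay outside the central 90% of expressed genes. Csnk1d, a PER kinase, had 26.8 FPKM in WT and 20.5 in KO, and its relative Csnk1e had 3.43 and 2.59. Gsk3b had 8.53 and 6.87 FPKM in the same order. The PER ligase genes Btrc (2.28 and 2.32 FPKM) and Fbxw11 (10.8 and 10.2 FPKM) differed little between WT and KO. Fbxl21, which encodes an F-box protein that binds CRY proteins, had 1.03 FPKM in WT and 2.99 in KO, and the level was 2.91 times as high in KO (95% counting interval 2.47 to 3.43).

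**Figure D4:**
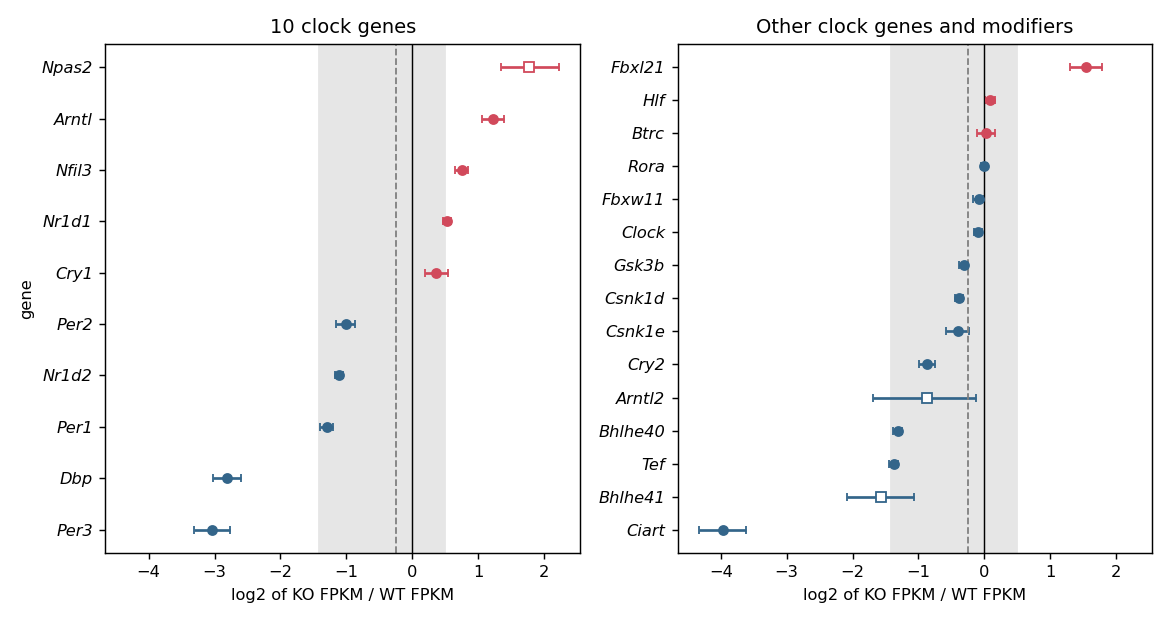
Log2 of the KO/WT ratio of FPKM, without a pseudocount, for the 10 clock genes (left) and for other clock genes and modifiers (right), with bars for the 95% counting interval. Grey bands hold the central 90% of expressed genes, dashed lines mark their median, and open squares are genes under 1 FPKM on average. Per3, Dbp, Ciart and Bhlhe41 lie to the left of the band, and Arntl, Npas2, Nfil3, Nr1d1 and Fbxl21 to the right. Rorb, listed at 0 in both libraries, and genes not reported here are not drawn.

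Genes known as direct targets of the clock were read next. Of 4 E-box targets that are not members, all were expressed and lower in KO, 3 of them over 2-fold, and their median log2 KO/WT was -1.68. The matching shares of all expressed genes were 75.7% lower and 8.91% over 2-fold lower. Noct (listed as Ccrn4l), which encodes a rhythmic phosphatase, had 20.8 FPKM in WT and 10.7 in KO, and the level was 1.94 times as high in WT (95% counting interval 1.88 to 2.00). Nampt, the enzyme of the NAD+ salvage pathway, had 12.0 and 5.73 FPKM, a ratio of 2.10 (1.97 to 2.24). Usp2, a ubiquitin protease gene, had 9.81 and 1.91 FPKM, a ratio of 5.14 (4.62 to 5.73). The list also holds Wee1, a kinase gene that holds back entry into mitosis, with a log2 KO/WT of -3.16, the lowest of the 4. The counts and the median above include Wee1, and its level is given beside the proliferation genes below.

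Of 6 targets of PAR bZIP factors, 4 were lower and 2 higher in KO, with 1 over 2-fold in each direction and a median log2 of -0.59. Among all expressed genes 75.7% were lower, 8.91% over 2-fold lower and 1.75% over 2-fold higher. Cyp2a5, a cytochrome P450, had 518 FPKM in WT and 145 in KO, but it has near-identical copies among which its fragments could be split, so its value is uncertain. Por, which passes electrons to cytochromes P450, had 181 FPKM in WT and 272 in KO. Alas1, the first enzyme of heme synthesis, had 180 and 145 FPKM. Both genes listed as targets that REV-ERBs repress were over 2-fold higher in KO, beside 1.75% of all expressed genes. Insig2, a brake on SREBP processing, had 116 FPKM in WT and 368 in KO, and the level was 3.17 times as high in KO (95% counting interval 3.12 to 3.23). Elovl3, an elongase of fatty acids, had 41.5 and 217 FPKM, a ratio of 5.22 (5.05 to 5.39).

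Hormones and temperature also reach the liver clock, and genes that respond to them were read in the same way. Of 6 glucocorticoid-responsive genes, 5 were lower in KO, 1 of them over 2-fold, with a median log2 of -0.66, beside 75.7% of all expressed genes lower and 8.91% over 2-fold lower. Tat, an enzyme of tyrosine breakdown, had 1115 FPKM in WT and 595 in KO, Pck1, an enzyme of glucose synthesis, had 852 and 818, and Tsc22d3 (GILZ) had 48.7 and 28.5. Of 7 temperature-responsive genes, 5 were lower, 3 of them over 2-fold, with a median log2 of -0.58, beside the same shares of all expressed genes. Of those 3, Hspa1a and Hspa1b are near-identical copies whose fragments could be split, so their values are uncertain, and both were named after their values were seen. Hsp90aa1, a chaperone gene, had 123 FPKM in WT and 84.7 in KO, the cold-induced Rbm3 had 34.1 and 15.3, and the chaperone gene Hsph1 had 20.3 and 22.6. The part of these cues in the clock genes was not tested.

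**Figure D5:**
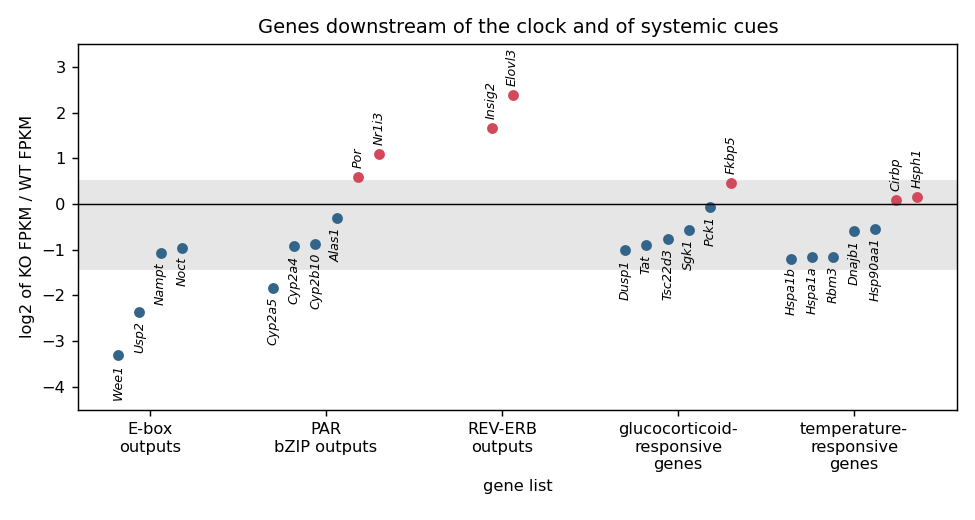
Log2 of the KO/WT ratio of FPKM, without a pseudocount, for each gene of the lists downstream of the clock and of hormone and temperature cues (points, blue below 0 and red above), with the central 90% of expressed genes as a grey band. Wee1 and Usp2 lie lowest among the E-box outputs, and Insig2 and Elovl3 lie highest of all genes drawn.

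The libraries also differed in proliferation and in markers of cell types, and these values stand beside all clock values. Each of 7 proliferation genes was over 2-fold lower in KO, beside 8.91% of all expressed genes. Their median log2 was -6.12, and their sum was 228 FPKM in WT and 15.7 in KO. Pcna had 66.8 FPKM in WT and 13.0 in KO, Rrm2 had 47.5 and 1.03, and Cdk1 had 41.9 and 0.434. Wee1 had 8.56 FPKM in WT and 0.869 in KO, and the level was 9.85 times as high in WT (95% counting interval 7.93 to 12.3). The part of proliferation in the clock genes was not tested.

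The labelled tissue is liver, and all 6 hepatocyte markers were expressed, 3 of them lower and 3 higher in KO. These counts and those of the other cell types stand beside 75.7% of all expressed genes lower in KO. Apoa1 had 3061 FPKM in WT and 3503 in KO, Ttr 2503 and 2406, and Ass1 2672 and 983. The sum of all 6 hepatocyte markers was 10828 FPKM in WT and 9110 in KO. Of 6 macrophage markers, all expressed, 5 were lower in KO, with a sum of 41.2 FPKM in WT and 26.5 in KO. Of 6 neutrophil markers 3 were expressed and lower in KO, the sum was 14.8 and 7.87 FPKM, and the defining Ly6g and Mpo were listed at 0 in both libraries. The 5 endothelial markers were all lower in KO, with sums of 26.6 FPKM in WT and 15.7 in KO, and so were the 5 stellate cell markers, with sums of 79.2 and 58.2. Cholangiocyte markers, 2 of 4 expressed and both lower, summed to 5.33 FPKM in WT and 3.03 in KO. None of 4 lymphocyte markers was expressed at a mean of 1 FPKM or more, with sums of 0.316 and 0.210. Of 4 erythroid markers 3 were expressed, 2 lower and 1 higher, and the sums were 295 and 252 FPKM. In whole liver, fewer cells of a type and less RNA per cell cannot be told apart, and the part of these cell types in the clock genes was not tested.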

How the data were processed

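Hepatic RNA of 1 WT and 1 KO library was measured by RNA-sequencing. Per the labels and the methods, the authors aligned reads with TopHat (2.0.0) to mm9, assembled transcripts with Cufflinks (1.3.0) and deposited 1 FPKM value per locus and library from Cuffdiff. Whether quartile normalization was used is not given in the sources used here. The authors' own fold, test statistic, p-value and q-value columns were not used. The deposited table held 38016 loci, of which 21 marked HIDATA were left out, 187 were marked as failed comparisons and 2302 had no symbol.

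The clock genes and all lists were chosen with earlier results of these data known. Rows of a symbol were summed. Symbols that share a joint locus were given its value and counted once among expressed genes. Ratios are of the FPKM values. Log2 values and list medians were taken after adding 0.1 FPKM to both values as a pseudocount, so the differences of low genes are understated. List medians and counts are over genes whose mean FPKM reached 1, except that the arm medians are over all members. Fragments behind a value were estimated from its FPKM, the depth and the longest transcript of the gene in GENCODE vM1 (NCBIM37), and depth from 307 low values of single-exon genes in WT and 279 in KO. The choice of transcript moves these estimates and so the width of the intervals. Both kinds of interval are at 95%.

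The software was pandas 2.3.3 and numpy 2.4.6 under Python 3.11.15, with intervals from scipy 1.17.1 and plots from matplotlib 3.10.9. The steps were tested on simulated libraries. Genes named were the 10 members, Ppard, the other clock genes, the 3 most abundant genes (by mean FPKM) of each other main list, and genes that share a locus with a member. A few of the other clock genes are not reported here, though the counts and medians of that list include them. Of the lists of markers of cells other than hepatocytes, only sums and counts are given, apart from markers at 0. Usp2, Noct and Nampt were named by that rule, and Wee1, Des and Sox9 after their values were seen. Alternatives covered the scaling, the pseudocount, the filter on FPKM, the fold, the handling of rows and, added after the data were seen, the choice of members in an arm. Gene positions are on NCBIM37 and promoter windows on GRCm38.p6, both counted from 1. No protein sequences were used here.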

Additional observations from a re-analysis of the deposited data

How the results depend on the processing

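None of the 10 clock genes changed direction under the alternatives run. Of 79 alternative values of single members, 56 moved by less than the counting interval, 23 moved by more and 0 reversed. The absence of reversals was fixed in advance. A pseudocount cannot turn a direction, and the scaling shifts were smaller than the smallest log2 KO/WT of a member (0.36, Cry1). Each member has 1 row of its own, so the handling of rows left all values as they were, apart from leaving out Per1. Those unchanged values are counted among the 56. Scaling to equal upper quartiles, which raises the KO level by 0.23 on the log2 scale before the pseudocount, gave arm medians of 1.20 (genes repressed by REV-ERBs) and -0.97 (E-box and D-box arm), with 3 members over 2-fold lower. Centring on the median of expressed genes, which adds 0.24 to each log2 KO/WT, gave 1.21 and -0.96, again 3 members over 2-fold lower, a median of -0.0709 for the other clock genes, and 6.33% and 2.73% of expressed genes over 2-fold lower and higher. Under both of these scalings 8 of 87 other genes read turned from lower to higher in KO (Clock, Rora, Fbxw11, Pck1, Ttr, Des, Sox9 and Ppard), and under equal sums 0 did. A pseudocount of 1 FPKM gave 0.63 for the genes repressed by REV-ERBs and 1.72 for the difference of the arms. A fold of 1.5 raised the members higher in KO to 2 and left those lower in KO at 5. The share of all expressed genes at that fold is not given here. A filter at a mean of 0.1 FPKM gave 13.7% and 2.79% of genes over 2-fold lower and higher. No paired analysis was possible because each genotype has 1 library, and for the same reason no replicate could be left out. Depth limits Npas2 and Per3 most, and variation from mouse to mouse could not be measured.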
